A study of Mus musculus with 151 samples.

Results

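Solute carriers (the Slc genes) are the membrane proteins that move ions, sugars, amino acids, metals, nucleotides and vitamins across the plasma membrane and the membranes of organelles. The genes described here are the 149 of 373 solute carrier symbols in the count matrix that reached a mean of 10 counts per 1000000 (CPM) in at least 1 of 3 groups of cochlear hair cells, with 7 well-known hair cell and supporting-cell carriers left out by name, among them Slc26a5 (Prestin) and Slc17a8 (vGlut3). CPM is a gene's count over the cell's total count, times 1000000. Of the 149 genes, 4 have such a symbol but encode no transporter, Slc9a3r1 and Slc9a3r2 among them, and they are counted with the carriers throughout. The level itself chose these genes, so that a gene which passed through 1 group alone had to differ from the other groups. There were 93 genes at 10 CPM or more in all 3 groups, 30 in 2 groups and 26 in 1 group, and of the last 17 passed in P14_iOHCs, 6 in P14_WT IHCs and 3 in P30_WT IHCs. Just inside the threshold, Slc29a3 had its highest group mean at 10.1 CPM, Slc25a13 at 10.8 CPM and Slc25a32 at 11 CPM, and just outside it Slc38a7 had 9.61 CPM, Slc22a15 9.30 CPM and Slc10a3 9.07 CPM.

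The cells were single tdTomato+ hair cells of C57BL/6 mice, picked by hand from dissociated cochleae and sequenced as full-length cDNA, 1 cell per library. The inner hair cells (IHCs, the sensory cells that pass sound to the auditory nerve) comprised 55 cells at postnatal day 14 (P14_WT IHCs) and 50 cells at postnatal day 30 (P30_WT IHCs), both of the genotype vGlut3-P2A-iCreER/+; Ai9/+. The 46 P14_iOHCs, induced outer hair cells, came at postnatal day 14 from the genotype vGlut3-P2A-iCreER/+; Tbx2 flox/-; Ai9/+, in which the Cre of IHCs deletes Tbx2, a T-box transcription factor. All 3 groups thus carried 1 vGlut3 allele with inserted Cre and the Ai9 reporter and had received tamoxifen, the WT cells included. The P14_iOHC mice also lacked 1 Tbx2 allele in every cell of the body, and the smaller tdTomato+ cells were the ones picked from them. The labels name no mouse, so each group counted as 1 sample, no test was made, and the ± values and ranges below describe the spread between cells. Binomial intervals on a share of cells cover only the counting of the cells picked, not differences between mice.

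Hair cells depend on solute carriers in ways known from other work. The endolymph above them is rich in potassium and poor in sodium and calcium, exchangers and cotransporters set chloride, pH and calcium inside the cell, and mitochondrial carriers of the Slc25 family move ADP, ATP, phosphate and metabolites across the inner mitochondrial membrane. Outer hair cells (OHCs) use the anion transporter relative Prestin as a motor protein, and IHCs load synaptic vesicles with glutamate through vGlut3.

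Total counts ranged from 4326416 to 25035444 per cell (median 15557333), and 51 of the 151 cells had under 11000000 counts, 16 of them P14_WT IHCs, 12 P14_iOHCs and 23 P30_WT IHCs. A count of 3 in a cell corresponded to between 0.120 and 0.693 CPM, depending on the cell. The 149 carriers took a median of 0.982% of the counts of a P14_WT IHC, 0.842% in P14_iOHCs and 0.822% in P30_WT IHCs, and a cell had a count for a median of 93, 87.5 and 83.5 of them, with a range from 59 to 132. In their medians the groups followed their labels, but single cells overlapped in the summed markers. The summed CPM of 4 IHC markers lay between 3718 and 7607 in P14_WT IHCs, 47.1 and 4511 in P14_iOHCs and 4210 and 9527 in P30_WT IHCs. That of 5 OHC markers had medians of 869, 45445 and 416 CPM, with a lowest P14_iOHC at 1552 CPM and a highest P14_WT IHC at 5949 CPM. Ocm had the highest mean of the 5 in every group (744, 37457 and 891 CPM), the WT IHCs included. Slc26a5 alone did not overlap between the P14 groups, with a lowest P14_iOHC at 142 CPM and a highest P14_WT IHC at 4.01 CPM. Tbx2 counts, which do not tell a floxed from a deleted transcript, had medians of 240.3, 41.4 and 167 CPM, and 45 of 46 P14_iOHCs held a Tbx2 count, up to 427 CPM. Supporting-cell markers were detected more widely in P14_iOHCs: 9 of 16 supporting-cell markers had a count in at least 50% of P14_iOHCs, against 1 in P14_WT IHCs and 4 in P30_WT IHCs, and their summed CPM ranged over 3800 to 8977, 2225 to 20017 and 1002 to 8568 CPM. Most of this sum was Fbxo2, which had counts in every cell of all 3 groups, whereas the gap-junction gene Gjb6 averaged 87.6, 607 and 57.2 CPM and Prox1 had no count in either group at P14. A supporting-cell score, the mean log2(CPM + 1) of the 16 markers, had medians of 0.916, 3.20 and 1.35, and 16 P14_iOHCs lay above the highest P14_WT IHC at 4.00. The 6 fibroblast or mesenchyme markers had median summed CPM of 0.224, 23.8 and 0.457 CPM in P14_WT IHCs, P14_iOHCs and P30_WT IHCs, and 2 of them had a count in at least 50% of P14_iOHCs against 0 in both WT groups; their part in the results was not tested. Beside each carrier that moved with the supporting-cell score its value is given, and the part of supporting-cell RNA in it was not tested.

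The 250 bases before the RefSeq transcription start are printed for 4 of the genes past 4-fold in a comparison below, from GRCm38.p6 and in the direction of transcription. Slc34a3 (chr2:25234235-25234484, minus strand) and Slc24a3 (chr2:145167525-145167774, plus strand) were lower in P14_iOHCs. Slc45a3 (chr1:131962665-131962914, plus strand) and Slc9a3r1 (chr11:115163091-115163340, plus strand) were higher in P14_iOHCs. Slc9a3r1 encodes no transporter, and its log2 ratio of mean CPM went from 2.83 to 1.27 without the P14_iOHCs of high supporting-cell score. Slc24a3 and Slc45a3 each have a further listed start downstream. Capitals mark GGTGTG or its reverse complement CACACC, the core of the T-box motif, whose longer form searched was AGGTGTGA and which contains GGTGTG.
Slc34a3: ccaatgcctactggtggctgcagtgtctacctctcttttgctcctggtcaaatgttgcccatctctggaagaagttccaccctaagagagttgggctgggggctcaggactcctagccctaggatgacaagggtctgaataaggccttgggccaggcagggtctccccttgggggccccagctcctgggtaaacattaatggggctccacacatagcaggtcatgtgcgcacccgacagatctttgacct
Slc24a3: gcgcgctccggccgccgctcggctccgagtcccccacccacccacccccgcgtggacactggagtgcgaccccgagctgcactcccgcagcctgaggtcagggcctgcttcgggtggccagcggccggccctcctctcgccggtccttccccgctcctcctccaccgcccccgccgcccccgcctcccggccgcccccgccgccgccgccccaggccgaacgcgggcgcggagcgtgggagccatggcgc
Slc45a3: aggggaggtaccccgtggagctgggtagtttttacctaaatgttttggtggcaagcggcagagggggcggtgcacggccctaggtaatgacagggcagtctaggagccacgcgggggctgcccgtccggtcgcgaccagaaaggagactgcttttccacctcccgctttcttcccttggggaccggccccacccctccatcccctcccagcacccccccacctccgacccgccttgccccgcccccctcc
Slc9a3r1: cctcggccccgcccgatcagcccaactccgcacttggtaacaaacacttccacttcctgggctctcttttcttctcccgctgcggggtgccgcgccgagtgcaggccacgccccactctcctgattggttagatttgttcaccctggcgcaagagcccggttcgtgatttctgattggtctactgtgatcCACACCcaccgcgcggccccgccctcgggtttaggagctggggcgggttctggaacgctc
The 14 carriers past 4-fold in either comparison with a listed start had 21 such windows, none of which held AGGTGTGA, found in 1.12% of all 32851 windows of this length. GGTGTG, searched on both strands, was in a window of 5 of these 14 genes (Slc10a7, Slc25a29, Slc38a4, Slc44a3 and Slc9a3r1), and in 18.3% of all 27025 genes with a window. Among all 156 windows of the carriers, 18.6% held it, against 16.3% of all windows. A letter match is no evidence of binding, and its absence here concerns these windows alone.

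P14_iOHCs and P14_WT IHCs were compared by the ratio of their group mean CPM, as log2 of (mean CPM + 1) over (mean CPM + 1), to show which of the 149 genes differed after Tbx2 deletion in IHCs. The ratios given below are these log2 ratios, and a cell held a gene if it had at least 1 count. Past 4-fold (a log2 ratio over 2 in size), 8 of 149 carriers were higher in P14_iOHCs, 5.37% of them, where 6.61% of all 9870 genes at 10 CPM or more were higher. The 6 carriers past 4-fold lower made 4.03%, where 3.02% of all genes were lower. The higher ones were Slc44a1, Slc9a4, Slc9a3r1, Slc44a3, Slc45a3, Slc16a10, Slc31a2 and Slc25a29, and the lower ones Slc34a3, Slc38a4, Slc14a1, Slc24a3, Slc10a7 and Slc12a5. These shares were near those of all genes, and the levels had chosen the members, so the counts describe the list and support nothing about it. Past 2-fold, 27 carriers were higher (18.1%, all genes 14.7%) and 26 lower (17.4%, all genes 9.78%), and the median log2 ratio was -0.16 against 0.05 over all genes. With DESeq2 size factors in place of total counts these medians were -0.03 and 0.18, and of the substrate groups described below those of the mitochondrial (-0.10 to 0.02), zinc and manganese (-0.02 to 0.21) and vesicular monoamine carriers (-0.0015 to 0.35) changed sign.

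Without the 16 P14_iOHCs of high supporting-cell score, the number higher past 4-fold was 4 (Slc16a10, Slc44a1, Slc45a3 and Slc9a4) and the number lower was 8, with Slc19a2, Slc35g2 and Slc52a2 added and Slc12a5 lost at -1.74. Of all genes, 4.08% were then higher and 3.69% lower. Within the cells of under 11000000 counts there were 15 higher and 15 lower (all genes, 8.76% and 6.14%). Within those above it there were 8 and 6 (all genes, 6.64% and 3.41%). Slc14a1, a urea transporter, was named after its values were seen, since too few cells held it for the naming rule.

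**Figure D1:**
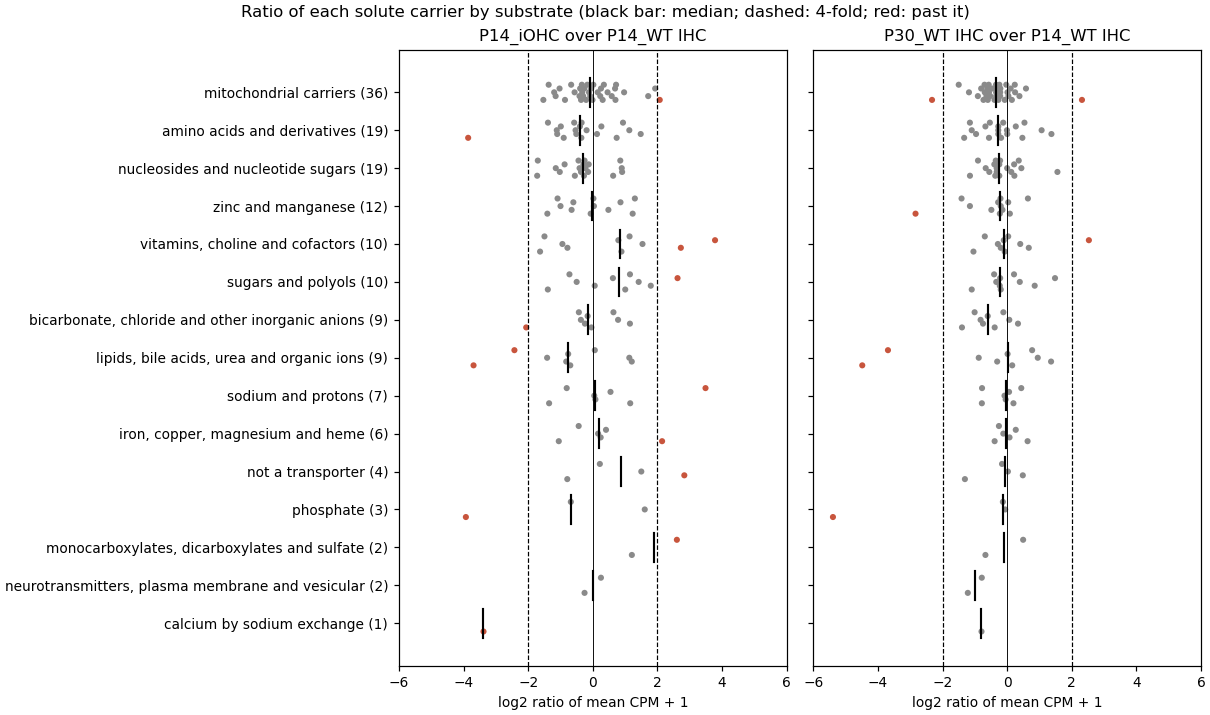
Log2 ratio of group mean CPM + 1 of each of the 149 carriers (x axis, 1 point per gene) by the substrate of its family (y axis, number of members in parentheses), for P14_iOHC over P14_WT IHC (left) and P30_WT IHC over P14_WT IHC (right). Black bars are medians, dashed lines mark 4-fold and red points lie past it, 14 genes on the left and 7 on the right. Most mitochondrial carriers lie within 2-fold, as do most of all genes (not shown), and the lowest point, Slc34a3 at -5.39, is a phosphate carrier.

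P30_WT IHCs were set against the same P14_WT IHCs to follow the carriers as IHCs matured. Past 4-fold, 2 of 149 were higher at P30, Slc44a1 and Slc25a26 (all genes, 0.861%), and 5 were lower, among them Slc34a3, Slc47a2, Slc14a1 and Slc39a8 (all genes, 1.32%). Past 2-fold, 7 were higher (4.70%, all genes 5.38%) and 19 lower (12.8%, all genes 7.51%). The median log2 ratio was -0.23, against -0.04 over all genes, and 101 of 149 carriers lay below 0, where 53.1% of all genes did. The mean share of counts from mitochondrial genes was 6.54% in P14_WT IHCs and 9.35% in P30_WT IHCs, and over totals without these genes the median of the carriers was -0.19 against 0 over all genes. With DESeq2 size factors the median of all genes moved to 0.29 and that of the carriers to 0.11, so the sign of the carriers' median depended on the scaling while their place below all genes did not. The P30 medians of the substrate groups given below are relative to total counts, and with DESeq2 size factors those of the amino acid (0.12), sugar (0.31), mitochondrial (0.02) and nucleoside carriers (0.06) lay above 0, all below or near the 0.29 of all genes, and that of the inorganic anion carriers went from -0.60 to -0.30. Both comparisons used the same P14_WT IHCs, and their values are therefore given side by side without a measure of overlap.

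The phosphate carriers held the gene furthest from its P14 level in either comparison. Slc34a3 encodes the sodium-coupled phosphate cotransporter NaPi-IIc, known chiefly from the kidney. Its lowest, median and highest levels were 0, 137 and 650.1 CPM in P14_WT IHCs, 0, 0 and 233 CPM in P14_iOHCs and 0, 0 and 126 CPM in P30_WT IHCs. Nearly every P14_WT IHC held it (54 of 55 cells, 98.2%, 95% exact binomial interval 90.3 to 100.0%), but 12 of 46 P14_iOHCs did (26.1%, 95% exact binomial interval 14.3 to 41.1%) and 3 of 50 P30_WT IHCs (6.00%, 95% exact binomial interval 1.25 to 16.5%). The ranges overlapped through the few cells that held it in the latter groups and 1 P14_WT IHC without a count. The log2 ratio was -3.93 in P14_iOHCs and -5.39 in P30_WT IHCs. From summed counts over summed totals, P14_WT IHCs had 13.5 times the P14_iOHC level (exact 95% counting interval 13.2 to 13.8) and 83.5 times the P30 level (79.2 to 88.1), intervals that cover counting error only.

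The low levels rested on few cells: without the 2 highest cells of each group the ratio was -5.155 in P14_iOHCs and -7.33 at P30. In P14_iOHCs 1 cell gave 47.1% of the summed CPM of the group. The ratio was past 4-fold in both comparisons within the cells under 11000000 counts (-5.58 and -4.81) and within those above (-3.48 and -7.31). Its rank correlation with the supporting-cell score over the 46 P14_iOHCs (Spearman's rho) was -0.0023.

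The ubiquitous phosphate transporters Slc20a1 (PiT-1) and Slc20a2 (PiT-2) did not share this pattern. Slc20a1 averaged 37.1 ± 46.1 CPM (SD over cells) in P14_WT IHCs, 115 ± 171 in P14_iOHCs and 33.8 ± 46.3 in P30_WT IHCs, log2 ratios of 1.61 and -0.13. Its rho with the supporting-cell score was 0.60, and without the 16 P14_iOHCs of high score the ratio was 0.36. Slc20a2 stood at -0.68 and -0.06, with 30 of 55, 22 of 46 and 20 of 50 cells holding a count.

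The sodium-calcium exchangers Slc8a1, Slc8a2 and Slc8a3 were among the carriers left out by name, and their levels are not described here. Of the 149 carriers, Slc24a3, a potassium-dependent sodium-calcium exchanger (NCKX3), was the only member of its substrate group. It had counts in every WT IHC, with lowest, median and highest levels of 105, 367 and 779 CPM at P14 and 22.4, 197 and 434 CPM at P30, against 0, 5.03 and 453 CPM in P14_iOHCs. Of the 46 P14_iOHCs, 43 lay below the lowest P14_WT IHC, and 33 of 46 held a count (71.7%, 95% exact binomial interval 56.5 to 84%). The log2 ratio was -3.39 in P14_iOHCs and -0.82 at P30, where 8 of 50 cells lay below every P14_WT IHC. P14_WT IHCs had 10.6 times the summed level of P14_iOHCs (exact 95% counting interval 10.4 to 10.7) and 1.82 times that of P30_WT IHCs. The interval covers the counting of reads only, and 1 P14_iOHC gave 28.6% of the summed CPM of its group. Without the 2 highest cells of each group the P14_iOHC ratio was -4.05, and with medians over cells it was -5.93. Without the 16 cells of high score the P14_iOHC ratio was -2.93.

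Among the cation-chloride cotransporters, Slc12a5 (KCC2), which extrudes chloride in neurons, was lower in P14_iOHCs. Its lowest, median and highest levels were 0, 50.1 and 333 CPM in P14_WT IHCs, 0, 0 and 107 CPM in P14_iOHCs and 0, 9.49 and 193 CPM in P30_WT IHCs. The number of cells that held it was 51 of 55, 19 of 46 and 36 of 50, and the ranges overlapped throughout. The ratio of -2.06 sat at the edge of 4-fold and was -1.74 without the high-score cells, and the P30 ratio was -0.75. Its relatives differed less: Slc12a7 (KCC4) stood at 0.64 in P14_iOHCs and the chloride loader Slc12a2 (NKCC1) at -0.37. Slc12a7 had a rho of 0.64 with the score, and its ratio was -0.17 without the high-score cells, a turn of direction. At P30 Slc12a7 and Slc12a2 stood at -0.12 and -1.01. The bicarbonate carriers Slc4a2, Slc4a3, Slc4a7 and Slc4a8 lay between -0.43 and -0.04 in P14_iOHCs. Over the 9 carriers of bicarbonate, chloride and other inorganic anions the median was -0.16 in P14_iOHCs and -0.60 at P30.

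Of the 7 sodium and proton carriers, 5 had ratios above 0 in P14_iOHCs (all genes, 53.2%) and 2 below, with a median of 0.08. Slc9a9 (NHE9), an endosomal exchanger, had the highest level of the group per transcript length, at a mean of 81.4, 42.3 and 105 transcripts per 1000000 (TPM) in P14_WT IHCs, P14_iOHCs and P30_WT IHCs. Its log2 ratio of CPM was -0.81 in P14_iOHCs and 0.44 at P30. Slc9a7, of the Golgi, stood at -1.35 in P14_iOHCs, and Slc9a8, also of inner membranes, at 0.08. Slc9a2 (NHE2), of the plasma membrane, averaged 24.5 ± 32.9 CPM in P14_WT IHCs and 56 ± 51.1 in P14_iOHCs, a ratio of 1.16, and was held by 41 of 46 P14_iOHCs.

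Slc9a4 (NHE4), another exchanger of the plasma membrane, had counts in 3 of 55 P14_WT IHCs, 15 of 46 P14_iOHCs (32.6%, 95% exact binomial interval 19.5 to 48%) and 0 of 50 P30_WT IHCs, where the exact binomial interval allows a share of cells with a count, not of cells expressing the gene, of up to 7.11%. Its highest levels were 28.9 CPM in P14_WT IHCs and 159.9 CPM in P14_iOHCs, and 9 P14_iOHCs lay above every P14_WT IHC. The ratio of 3.49 was 2.50 without the 16 high-score cells, and the rho with the score was 0.55. Exons of Slc9a4 overlap another annotated gene over 16.8% of their length.

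Slc9a3r1 and Slc9a3r2 carry solute carrier symbols but encode NHERF1 and NHERF2, PDZ scaffold proteins that hold exchangers and channels at the apical membrane. Slc9a3r1 had no count in most WT IHCs, held by 9 of 55 cells at P14 and 8 of 50 at P30, but by 26 of 46 P14_iOHCs (56.5%, 95% exact binomial interval 41.1 to 71.1%). Its lowest, median and highest levels were 0, 0 and 219 CPM in P14_WT IHCs and 0, 0.987 and 227 CPM in P14_iOHCs, and the ratio was 2.83. The P14_WT IHC mean rested on few cells, since without the 2 highest cells of each group the ratio was 4.59. Within the cells under 11000000 counts it was 5.00 and within those above 2.54. It had the highest rho with the supporting-cell score of all 149 genes (0.76), and without the 16 high-score cells the ratio was 1.27. Slc9a3r2 stood at 1.50, with a rho of -0.02, and at -1.31 at P30.

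**Figure D2:**
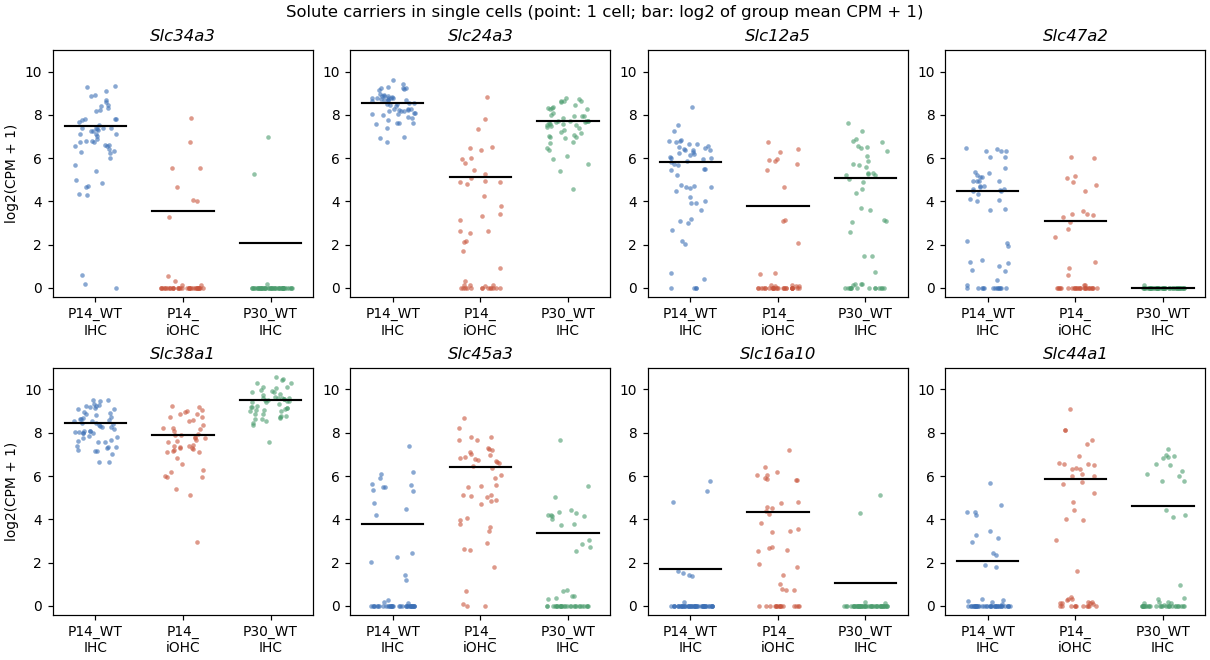
Level of 8 solute carriers in single cells, as log2(CPM + 1) (y axis), in the 3 groups (x axis). Each point is 1 cell, and the black bar is log2 of the group mean CPM + 1. Slc34a3 leaves nearly all P30_WT IHCs at 0, Slc24a3 is held by all WT IHCs but spreads down to 0 in P14_iOHCs, and Slc45a3 is held by 44 of 46 P14_iOHCs.

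Sugar transport included the most widely held of the 8 carriers past 4-fold higher in P14_iOHCs. Slc45a3, a proton-coupled sugar transporter also called prostein, had lowest, median and highest levels of 0, 0 and 166 CPM in P14_WT IHCs, 0, 53.4 and 413 CPM in P14_iOHCs and 0, 0 and 203 CPM in P30_WT IHCs. The number of cells holding it was 21 of 55, 44 of 46 (95.7%, 95% exact binomial interval 85.2 to 99.5%) and 23 of 50. The groups overlapped, with 6 P14_iOHCs above every P14_WT IHC. The ratio was 2.62 in P14_iOHCs and -0.40 at P30, and the summed P14_iOHC level was 6.29 times that of P14_WT IHCs (exact 95% counting interval 6.15 to 6.42). It was lower in the cells of high supporting-cell score. The rho was -0.28, the ratio was 2.93 without the 16 high-score cells, and the 16 alone averaged 45.7 CPM against 105 CPM in the other 30. Its relative Slc45a4 stood at 1.00.

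Of the 10 sugar and polyol carriers, 7 had ratios above 0 in P14_iOHCs (all genes, 53.2%) and 5 were past 2-fold higher (all genes, 14.7%). Their median was 0.81, against -0.21 at P30. The glucose 6-phosphate carriers of the endoplasmic reticulum Slc37a1 and Slc37a4 stood at 1.79 and 1.42, and their relative Slc37a3 at 0.62. Slc2a1 (GLUT1), the widely used glucose transporter, averaged 12.1 ± 25.2, 28.1 ± 39.9 and 22.7 ± 46.2 CPM in P14_WT IHCs, P14_iOHCs and P30_WT IHCs, and its ratio of 1.15 in P14_iOHCs was 0.53 without the high-score cells. Slc5a3, the sodium-coupled myo-inositol transporter, ran the other way, with lowest, median and highest levels of 0, 16 and 211 CPM in P14_WT IHCs, 0, 0 and 111 CPM in P14_iOHCs and 0, 89.5 and 435 CPM in P30_WT IHCs. Its ratio was -1.39 in P14_iOHCs and 1.48 at P30, where 11 of 50 cells lay above every P14_WT IHC. Slc50a1 (SWEET1) had the highest level of the group per length in P14_WT IHCs, 138 TPM, and ratios of -0.72 and -0.34.

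Of the 10 carriers of vitamins, choline and cofactors, 6 had ratios above 0 in P14_iOHCs, the 3 of the Slc44 family among them, and 4 below. Of all genes, 53.2% had ratios above 0. Slc44a1 (CTL1), a choline transporter, had counts in 18 of 55 P14_WT IHCs, 35 of 46 P14_iOHCs (76.1%, 95% exact binomial interval 61.2 to 87.4%) and 23 of 50 P30_WT IHCs. Its lowest, median and highest levels were 0, 0 and 50.3 CPM, 0, 10.9 and 546 CPM and 0, 0 and 152 CPM in these groups, and 17 P14_iOHCs and 12 P30_WT IHCs lay above every P14_WT IHC. The log2 ratios were 3.78 in P14_iOHCs and 2.53 at P30.

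The Slc44 values moved with the supporting-cell score. Over the 46 P14_iOHCs, cells whose detected-gene number itself had a rho of 0.72 with the score, rho was 0.74 for Slc44a1, 0.75 for Slc44a2 and 0.70 for Slc44a3. Slc44a1 averaged 135 CPM in the 16 high-score cells and 16 CPM in the other 30, whose log2 ratio to P14_WT IHCs was 2.00. The ratio of Slc44a2 was 1.54 with all cells and 0.54 without the 16, and that of Slc44a3, held by 2 of 55 P14_WT IHCs and 19 of 46 P14_iOHCs, 2.72 and 0.95. Both ratios of Slc44a1 differed with depth, that of P14_iOHCs being 2.17 within the cells under 11000000 counts and 5.07 within those above, and that of P30_WT IHCs 1.15 and 3.81.

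**Figure D3:**
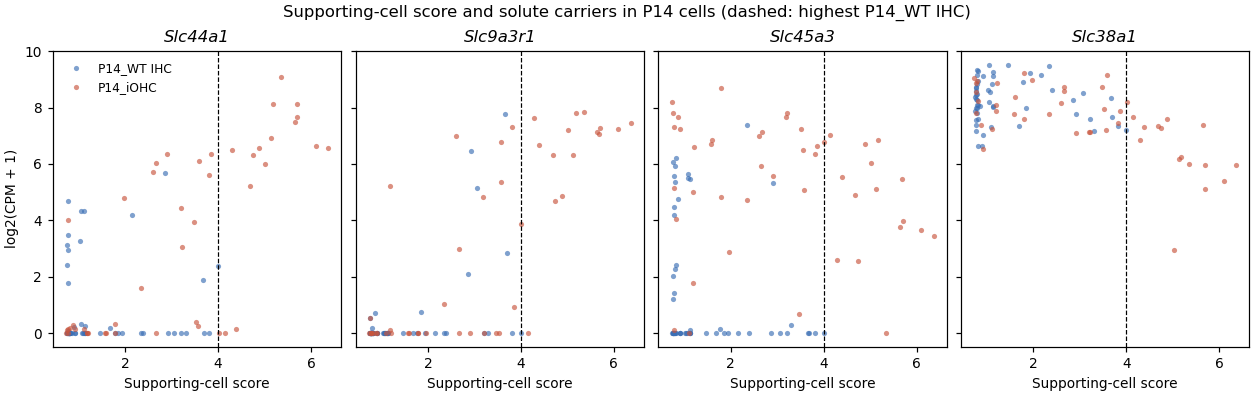
Level of 4 carriers as log2(CPM + 1) (y axis) against the supporting-cell score, the mean log2(CPM + 1) of 16 markers (x axis), in P14_WT IHCs (blue) and P14_iOHCs (red), 1 point per cell. The dashed line is the highest P14_WT IHC at 4.00. Slc44a1 and Slc9a3r1 are high in cells of high score (rho 0.74 and 0.76 over 46 P14_iOHCs), Slc45a3 is not (-0.28) and Slc38a1 is low there (-0.65).

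The carriers of vitamin C (Slc23a2, SVCT2), riboflavin (Slc52a2) and thiamine (Slc19a2) stood at -0.94, -1.50 and -1.63 in P14_iOHCs. Without the 16 high-score cells these ratios were -1.02, -2.11 and -2.30, which put the last pair past 4-fold. At P30 they stood at -0.08, -1.04 and -0.10. The folate carrier Slc46a1 was higher in P14_iOHCs, at 1.14, and held by 33 of 46 cells against 18 of 55 P14_WT IHCs.

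Amino acid carriers made 7.01 ± 2.34% (SD over cells) of the summed TPM of the solute carriers in P14_WT IHCs, 6.19 ± 2.64% in P14_iOHCs and 11.5 ± 3.50% in P30_WT IHCs. Slc38a1 (SNAT1), a sodium-coupled glutamine transporter, was held by every cell. Its lowest, median and highest levels were 97.9, 308 and 736 CPM in P14_WT IHCs, 6.75, 197 and 605 CPM in P14_iOHCs and 191, 693 and 1512 CPM in P30_WT IHCs, of which 22 of 50 lay above every P14_WT IHC. The ratios were 1.07 at P30 and -0.53 in P14_iOHCs, and the rho of -0.65 with the supporting-cell score was the only one below -0.5 among the 149 genes. The neutral amino acid exchanger Slc1a5 (ASCT2) had the same order, with ratios of 0.47 and -0.90, and the highest level of the class per length in P14_WT IHCs (171 TPM, against 70.1 for Slc38a2 and 49.3 for Slc38a1).

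Slc38a4 (SNAT4) had 15 of 55 P14_WT IHCs and 10 of 50 P30_WT IHCs with a count, but 1 of 46 P14_iOHCs, which held 2 counts. The log2 ratio was -3.86, and -1.89 with a pseudocount of 5 CPM. Without a pseudocount the summed level of P14_WT IHCs was 4730.4 times that of P14_iOHCs, with an exact 95% counting interval of 1309 to 39065. The size of this value rests on those 2 counts. The glutamate transporter Slc1a6 (EAAT4) was also lower in P14_iOHCs, at -1.39, with 37 of 55 and 15 of 46 cells holding it. The lysosomal histidine and peptide transporter Slc15a4 averaged 13 ± 30.8 CPM in P14_WT IHCs and 38.2 ± 75.2 in P14_iOHCs, a ratio of 1.48 that was 1.97 without the high-score cells.

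The taurine transporter Slc6a6 stood at 0.74 in P14_iOHCs with a rho of 0.70, and at -0.88 without the high-score cells, so that its direction turned with them. At P30 the cationic amino acid transporter Slc7a3 was higher (1.37, 30 of 50 cells against 21 of 55), while Slc43a2 (LAT4) and Slc6a6 were lower (-1.33 and -1.15). Over the 19 amino acid carriers the median was -0.40 in P14_iOHCs and -0.27 at P30.

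Slc16a10 belongs to the monocarboxylate family but carries aromatic amino acids. It had counts in 8 of 55 P14_WT IHCs, 30 of 46 P14_iOHCs (65.2%, 95% exact binomial interval 49.8 to 78.6%) and 4 of 50 P30_WT IHCs, with lowest, median and highest levels of 0, 0 and 53.7 CPM, 0, 3.77 and 146 CPM and 0, 0 and 34.4 CPM. Most WT IHCs were at 0, and 9 P14_iOHCs lay above every P14_WT IHC. The ratio of 2.60 was 2.74 without the high-score cells, and rho with the score was -0.22. The lactate and pyruvate transporter Slc16a7 (MCT2) stood at 1.21 in P14_iOHCs and 0.49 at P30. The vesicular monoamine transporters Slc18a1 and Slc18a2 stood at 0.25 and -0.26 in P14_iOHCs, and at -1.22 and -0.78 at P30, with 51 of 55 P14_WT IHCs holding Slc18a1 against 24 of 50 P30_WT IHCs.

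Among carriers of organic ions, urea and lipids, Slc47a2 (MATE2), a proton-coupled exporter of organic cations, was held by most P14_WT IHCs and by a single P30_WT IHC. Its lowest, median and highest levels were 0, 15.7 and 88.2 CPM in P14_WT IHCs and 0, 0 and 65.4 CPM in P14_iOHCs, and the P30_WT IHCs held 1 count in all. The number of cells with a count was 42 of 55 (76.4%, 95% exact binomial interval 63 to 86.8%), 20 of 46 (43.5%, 95% exact binomial interval 28.9 to 58.9%) and 1 of 50 (2.00%, 95% exact binomial interval 0.0506 to 10.6%). The log2 ratio was -4.48 at P30 and -1.41 in P14_iOHCs, and the summed P14 level was 13559.5 times that at P30, with an exact 95% counting interval of 2433 to 535604.

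Slc14a1 (UT-B) had counts in 19 of 55 P14_WT IHCs, up to 86 CPM, and 1 count in 1 cell of each other group. Its log2 ratio was -3.69 in both comparisons, and -1.76 in both with a pseudocount of 5 CPM. Without a pseudocount the summed P14_WT IHC level was 7809 times that of P14_iOHCs (1401 to 308479). It was 7219 times that of P30_WT IHCs (1295 to 285160.0), each value resting on 1 count. Slc10a7, a bile acid family member of the secretory pathway, was held by 16 of 55, 8 of 46 and 35 of 50 cells, with ratios of -2.43 in P14_iOHCs and 1.36 at P30. Its P14_iOHC ratio was -0.56 within the cells under 11000000 counts and -2.92 within those above. The fatty acid transport proteins Slc27a1 and Slc27a4 stood at 1.21 and 1.13 in P14_iOHCs, with rho of 0.46 and 0.51 with the score. Slc22a23, an organic ion family member with no settled substrate, averaged 131 ± 82.9 CPM in P14_WT IHCs, 137 ± 111 in P14_iOHCs and 254 ± 120.3 in P30_WT IHCs.

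Most metal carriers were within 2-fold, as were most of all genes. Of 12 zinc and manganese carriers, 8 were within 2-fold in P14_iOHCs, with 2 higher and 2 lower (all genes, 14.7% higher and 9.78% lower). At P30, 9 were within 2-fold, with 0 higher and 3 lower (all genes, 5.38% and 7.51%). Slc39a8 (ZIP8), which imports zinc and manganese, was the exception past 4-fold at P30, with counts in 21 of 55 P14_WT IHCs and 5 of 50 P30_WT IHCs and a ratio of -2.84. In P14_iOHCs its ratio was 0.86 with all cells and -0.44 without the 16 high-score cells, a turn of direction, and its rho with the score was 0.64. The zinc exporters Slc30a5, Slc30a6, Slc30a7 and Slc30a9 lay between -0.07 and 0.48 in P14_iOHCs. The importer Slc39a14 stood at -1.09 in P14_iOHCs and 0.64 at P30.

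The heme transporter Slc48a1 (HRG1) was the highest metal carrier per length in P14_WT IHCs, at 179.8 TPM, and averaged 201 ± 113, 96.6 ± 77.6 and 185 ± 123 CPM in the 3 groups, a ratio of -1.05 in P14_iOHCs. The copper importer Slc31a1 (CTR1) stood at 0.24 in P14_iOHCs, and at -0.03 without the high-score cells. Its relative Slc31a2 (CTR2) stood at 2.14, and at 1.83 without those cells. Slc31a2 was held by 12 of 55 P14_WT IHCs and 17 of 46 P14_iOHCs. The iron importer Slc11a2 (DMT1) stood at 0.41 and 0.27.

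Mitochondrial carriers dominated the solute carrier transcripts. They made 61.3 ± 5.84% of the summed TPM of the carriers in P14_WT IHCs, 62.9 ± 5.53% in P14_iOHCs and 52.4 ± 9.19% in P30_WT IHCs (mean and SD over cells). The ADP/ATP carriers Slc25a4 and Slc25a5 and the phosphate carrier Slc25a3 were the highest per length in P14_WT IHCs and P14_iOHCs, and at P30 Slc25a3 was level with Slc1a5 (224 and 224 TPM). The first 3 stood at 1397, 1419.9 and 281 TPM in P14_WT IHCs. Slc25a4 had lowest, median and highest levels of 472, 1405 and 2032 CPM in P14_WT IHCs, 417, 1034 and 1699 CPM in P14_iOHCs and 217, 756 and 1573 CPM in P30_WT IHCs, and the groups overlapped. The P30 ratios of Slc25a4, Slc25a5 and Slc25a3 were -0.80, -0.91 and -0.24, and the P14_iOHC ratios -0.34, -0.33 and -0.08. Genes of this kind have processed pseudogene copies, and how reads shared with a copy were counted is not given in the sources used here. Over the 36 mitochondrial carriers the median was -0.10 in P14_iOHCs and -0.34 at P30, and 28 and 32 of them lay within 2-fold. Past 2-fold, 3 were higher and 5 lower in P14_iOHCs (all genes, 14.7% and 9.78%). At P30, 1 was higher and 3 were lower (all genes, 5.38% and 7.51%).

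**Figure D4:**
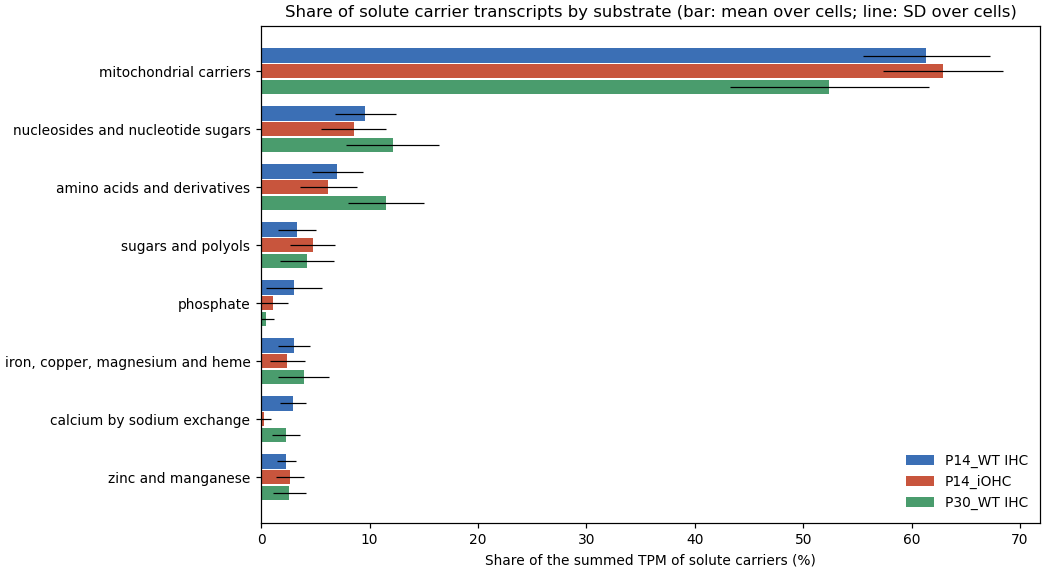
Share of the summed TPM of the solute carriers (x axis, percent) taken by the 8 largest substrate groups (y axis) in P14_WT IHCs (blue), P14_iOHCs (red) and P30_WT IHCs (green). Bars are means and lines SDs over cells, cut off at 0. Mitochondrial carriers take 61.3, 62.9 and 52.4%. Calcium by sodium exchange, here Slc24a3 alone with Slc8a1, Slc8a2 and Slc8a3 left out, has almost no bar in P14_iOHCs (0.306%).

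A few mitochondrial carriers stood apart. The pyrimidine nucleotide carrier Slc25a33 was lower at P30, at -1.50, with 53 of 55 and 26 of 50 cells. Slc25a26, which imports S-adenosylmethionine, was higher at P30, at 2.31, with counts in 6 of 55 P14_WT IHCs and 21 of 50 P30_WT IHCs, 7 of them above every P14_WT IHC.

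In P14_iOHCs the mitochondrial iron importer Slc25a37 (mitoferrin 1) had the lowest ratio of the family, -1.53, with 162 ± 112 CPM in P14_WT IHCs and 55.4 ± 61.7 in P14_iOHCs. Its paralogue Slc25a28 (mitoferrin 2) stood at -0.12. The ATP-Mg/phosphate carriers Slc25a23 and Slc25a25, which calcium activates, stood at -1.37 and -1.03. Slc25a29, a carrier of basic amino acids, was past 4-fold higher at 2.07, with 7 of 55 and 15 of 46 cells holding it, a rho of 0.50 with the score and a ratio of 1.52 without the high-score cells. The dicarboxylate carrier Slc25a10 went from 1.71 to 0.56 without those cells.

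Carriers of nucleosides and nucleotide sugars were lower in P14_iOHCs in 15 of 19 cases (14 with DESeq2 size factors), where 46.8% of all genes were lower. Their median was -0.29, and none passed 4-fold (all genes, 6.61% higher and 3.02% lower). The nucleoside transporter Slc29a1 (ENT1) averaged 208 ± 150.1, 169.6 ± 129.7 and 243 ± 218 CPM in P14_WT IHCs, P14_iOHCs and P30_WT IHCs. The lowest ratios in P14_iOHCs were those of the UDP-galactose transporter Slc35a2 (-1.72) and of Slc35g2 (-1.70, and -2.41 without the high-score cells). Slc35b1, a nucleotide carrier of the endoplasmic reticulum, had lowest, median and highest levels of 0.0594, 158 and 356 CPM in P14_WT IHCs and 0, 73.6 and 316 CPM in P14_iOHCs, a ratio of -1.02, while its P30 mean of 154 CPM was close to the P14 mean of 154 CPM. At P30 Slc35d1 stood at 1.56, with 12 of 55 and 20 of 50 cells, and the median of the class was -0.24.

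Within each group the carriers varied widely from cell to cell. In P14_WT IHCs 16 of the 149 had a count in every cell, in P14_iOHCs 7 and in P30_WT IHCs 13, and 97, 97 and 88 had a count in at least 50% of the cells. The coefficient of variation over cells had medians of 1.47, 1.67 and 1.72, from 0.252 for Slc25a4 in P14_WT IHCs to 7.37 for Slc44a3 in the same cells. Over the 46 P14_iOHCs the rho with the supporting-cell score was positive for 113 of 149 carriers, with a median of 0.14, and above 0.5 for 14, among them Slc12a7, Slc20a1, Slc39a8, Slc6a6 and the 3 Slc44 genes. The number of carriers with a count had a rho of 0.67 with the score in these cells, so cells of high score were also cells with more carriers detected. Against the cells' own Slc26a5 level the carriers ranged from -0.45 for Slc66a2 to 0.35 for Slc41a3, and against remaining Slc17a8 from -0.34 for Slc39a8 to 0.45 for Slc38a1. Correlations over cells share the library and its depth and are given as descriptions.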

How the data were processed

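The deposited matrix holds whole read counts per gene for single cells, which the authors made with FastQC 0.11.9, Trimmomatic 0.39, HISAT2 2.1.0 on mm10 (GRCm38) and HTSeq 0.10.0, as named in the submitters' processing notes. StringTie 1.3.5 is also named there. The annotation release, strand setting and treatment of multi-mapping reads are not given in the sources used here.

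Counts were divided by the cell's total to give CPM (Python 3.11.15, pandas 2.3.3). Groups followed the sample titles, with 55, 46 and 50 cells, and no pair of cells of a group held identical counts. Because the labels name no mouse, each group was 1 sample: the design assigned no test, and groups were compared by the ratio of mean CPM with a pseudocount of 1 CPM, called past the fold above 4-fold. Intervals (95%) cover counting error only, of reads for the exact Poisson and of cells for the exact binomial intervals, and not the spread between mice. Those on reads also leave out the spread between cells. TPM used union exon lengths of GENCODE M21, found for 147 of the 149 carriers. Carriers were put into substrate groups by family. Named were carriers past the fold and the 10 of largest ratio each way with counts in at least 50% of cells of the higher group, the 3 highest by mean CPM in each substrate group, and their family members. Some carriers that the rule names are not reported here. The members and lists were chosen with earlier results of these data known. The ratio script was tested on simulated data. Alternatives comprised edgeR 4.0.16 TMM and DESeq2 1.42.0 size factors for scaling only, other pseudocounts, filters, averages, depth sets and thinning.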

Additional observations from a re-analysis of the deposited data

How the results depend on the processing

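No carrier past 4-fold took the opposite sign under any alternative run on single genes, and 1659 of 1794 ratios of named or called carriers kept their sign. With medians over cells, however, the ratio was 0 for Slc10a7, Slc14a1, Slc25a29, Slc31a2, Slc38a4, Slc44a3 and Slc9a4 in P14_iOHCs. At P30 it was 0 for Slc14a1, Slc25a26, Slc39a8 and Slc44a1 under that alternative. Of the called carriers, 4 of 14 in P14_iOHCs (Slc24a3, Slc34a3, Slc44a1 and Slc45a3) and 2 of 7 at P30 (Slc34a3 and Slc47a2) stayed past 4-fold under all 13 alternatives run on single genes. The alternative without P14_iOHCs of high supporting-cell score could not change a P30 ratio, and its P30 values are among the 1659 that kept their sign. The cause of the changes below was not tested. Counts are given as higher and lower past 4-fold, with 8 and 6 in P14_iOHCs and 2 and 5 at P30 as reported. The shares of all genes under the same alternative follow in parentheses. A pseudocount of 5 CPM gave 4 and 2 in P14_iOHCs (3.59% and 1.57%) and 0 and 3 at P30 (0.172% and 0.395%). DESeq2 size factors gave 3 lower at P30 (0.486%), and medians of -0.031 in P14_iOHCs and 0.11 at P30, the latter a change of sign. The medians of the substrate groups under TMM and DESeq2 scaling were added after seeing the data. Medians over cells gave 13 and 24 in P14_iOHCs (6.60% and 10.7%), and 1 and 31 at P30 (1.75% and 11.7%). The median ratio at P30 was then -0.0705, against -0.036 over all genes. With no filter on level, over all 373 symbols, 17 were higher in P14_iOHCs (1.91%) and 6 at P30 (0.349%), with medians of 0. A mean of the 3 group means of at least 10 CPM left 126 carriers, with 3 higher in P14_iOHCs (4.34%). At P30 it gave 1 and 3 (0.51% and 0.94%). Cells under 11000000 counts gave 15 and 15 in P14_iOHCs (8.76% and 6.14%) and 8 and 10 at P30 (3.06% and 3.26%). Cells above gave 10 lower at P30 (2.40%). Leaving out the 16 P14_iOHCs of high supporting-cell score gave 4 higher (4.08%). A fold of 2 gave 27 and 26 in P14_iOHCs (14.7% and 9.78%) and 7 and 19 at P30 (5.38% and 7.51%). TMM factors, totals without mitochondrial genes, summed counts, means without the 2 highest cells, leaving out 4 cells far from the median number of detected genes, and thinning to 6000000 counts moved none of these counts by over 1.5 times. No paired analysis was possible because the results come from no test and the numbers in the titles only name cells. Depth limits carriers held by few cells, where absence and failed capture cannot be told apart.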
